A study of Homo sapiens with 6 samples.

Results

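The subunits of oxidative phosphorylation were compared on 6 arrays of cells labelled HSC2, a line from a human squamous carcinoma of the mouth. The labels give 3 arrays to cells that stably carry full-length wild-type MALT1 cDNA, and the other 3 to cells that stably carry the vector alone (mock). Both kinds of cells came from lines established earlier and grew in the same serum-containing medium. The promoter driving the cDNA, and whether a line is 1 clone or a pool, are not given in the sources used here. MALT1 is a paracaspase of the CARD and BCL10 complex in NF-kappaB signalling, and the study set out to find genes responsive to it. The subunits were taken by gene symbol, and the rule itself uses no measured values, but it was chosen with earlier results of these data known. It takes symbols that start with NDUFA, NDUFB, NDUFC, NDUFS, NDUFV, UQCR, COX4 to COX8 or ATP5, together with CYC1 and the succinate dehydrogenase genes. The NDUFAF assembly factors were left out. This gave 69 genes of 11963 measured, with 102 probe sets, and each gene was read from its probe set with the highest mean signal. Of the 69, 67 are protein-coding subunits (28 of complex I, 3 of complex II, 7 of complex III, 13 of complex IV and 16 of complex V, counting the ATP synthase inhibitor ATP5IF1 and the supercomplex factor COX7A2L with their complexes). The other 2, the antisense RNA NDUFB2-AS1 and the pseudogene ATP5MC2P1, entered by their symbols but are not protein-coding subunits, and are given apart.

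Oxidative phosphorylation passes electrons from NADH through complex I, or from succinate through complex II, to ubiquinone, then through complex III and cytochrome c to complex IV, which reduces oxygen. Complexes I, III and IV pump protons across the inner mitochondrial membrane, and complex V, the ATP synthase, lets them back to make ATP. The core proteins of complexes I, III, IV and V that mitochondrial DNA codes for were not analysed here, so every subunit below comes from a nuclear gene.

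On the arrays labelled MALT1, most subunit transcripts were higher. Of the 67 subunits, 42 were higher, 6 were lower and 19 did not pass at an adjusted p under 0.05, where 21.1% of all genes were higher and 19.2% were lower. The 6 lower ones were NDUFA9, NDUFB6, NDUFB8 and NDUFS4 of complex I, SDHD of complex II and UQCRC1 of complex III, and no subunit of complex IV or V was called lower. The changes were modest: 7 subunits were at least 2-fold higher (ATP5MC2, COX6C, NDUFA10, ATP5ME, SDHA, NDUFB2 and COX5B) and none was 2-fold lower, where 10.8% of all genes were called at least 2-fold higher and 9.64% at least 2-fold lower. The number at least 2-fold higher was thus near the share over all genes. The median log2 difference was 0.50 over the subunits, with quartiles of 0.07 and 0.76, against 0.08 over all genes. The signals of the 2 groups did not overlap for 55 subunits, 46 of them higher and 9 lower, where 29% of all genes had groups apart with higher signals and 25.6% with lower ones.

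Most subunits are strongly expressed, and strong probe sets pass the test more often. Of the 2393 genes with a mean signal of at least 1000, a level chosen after the data were seen, 29.5% were called higher and 29.3% lower. Among the 61 subunits above that level, 40 were higher, 5 were lower and 16 did not pass. Groups that did not overlap were common at such signals: 39.6% of these genes had them with higher signals and 39.4% with lower ones, against 44 and 8 of the 61 subunits. Calls of at least 2-fold were made for 8.4% (higher) and 10.2% (lower) of these genes, and for 7 and 0 of the 61 subunits. The median over the subunits, relative to the mock mean of each gene, was 0.46, 0.47 and 0.57 (log2) on the arrays labelled MALT1, against −0.04, −0.01 and 0.07 on the arrays labelled mock. The shift was thus present on each of the 3 arrays labelled MALT1, and was highest on replicate 3. Without that array the median difference was 0.47. Of the 42 higher calls, 24 held under all 12 alternatives tried, and of the 6 lower calls, those of NDUFA9, NDUFB6 and SDHD did. Only these 3 were called lower without MALT1 replicate 1, MALT1 replicate 2 or mock replicate 2.

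**Figure D1:**
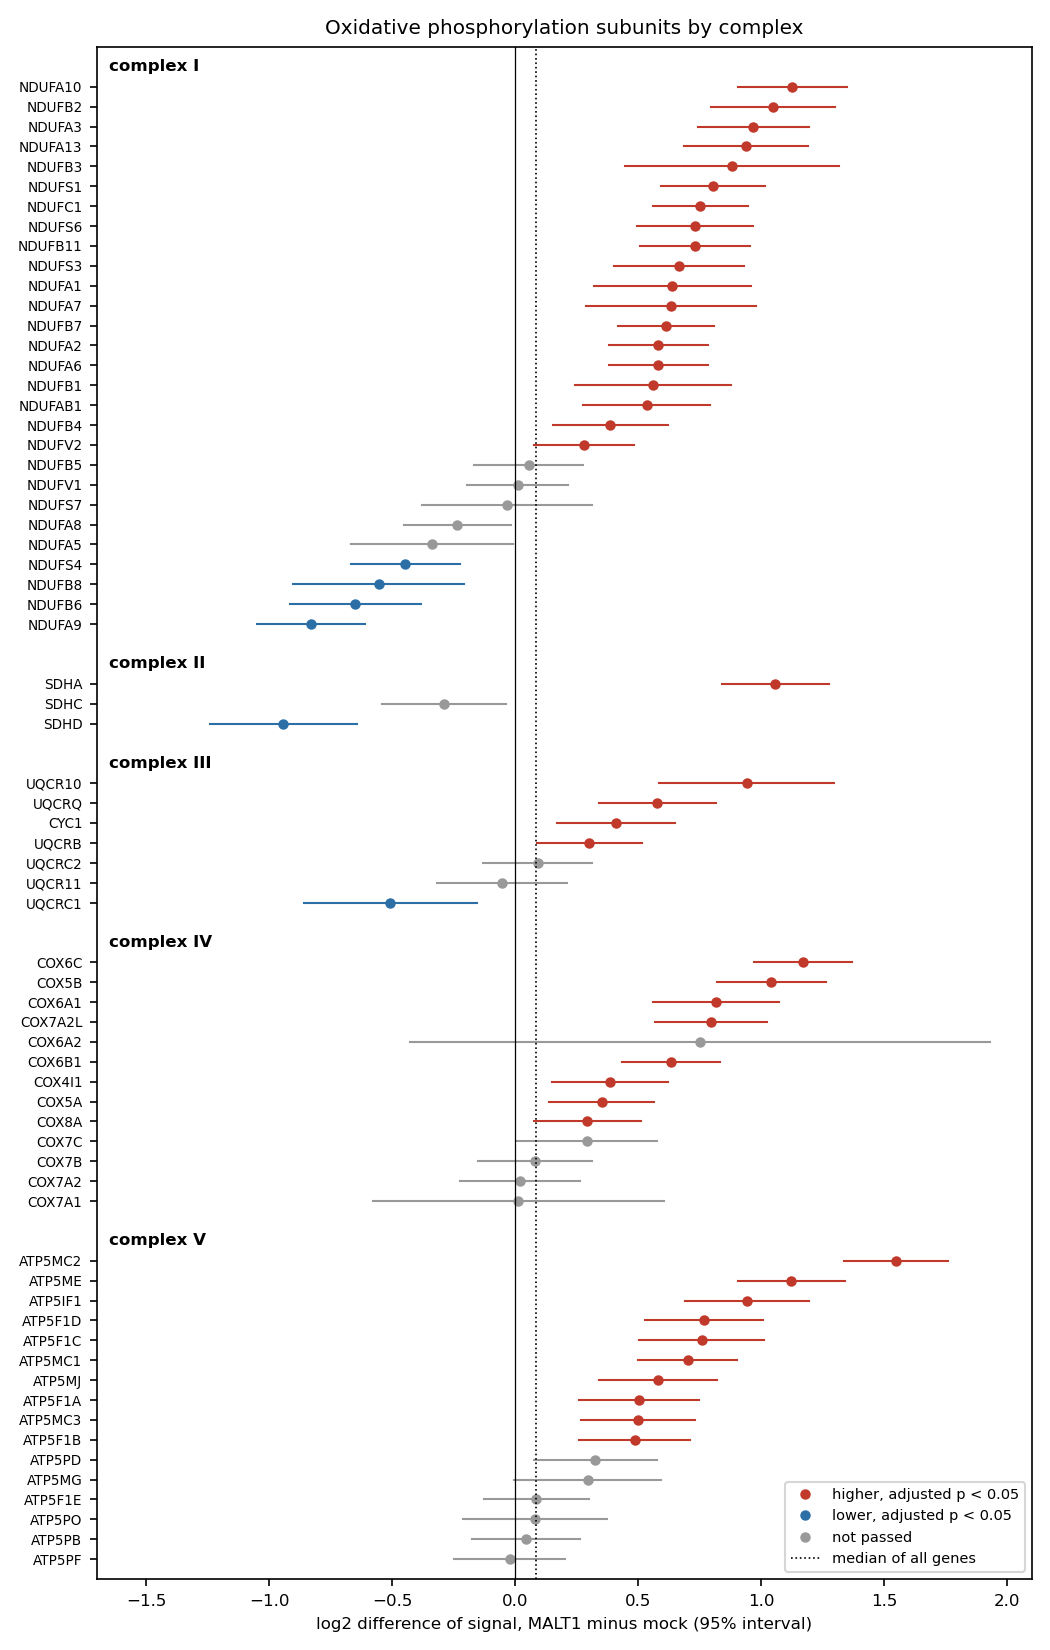
Difference of log2 signal, arrays labelled MALT1 minus arrays labelled mock, for each of the 67 subunits by complex (points, with 95% intervals of the limma fit; n = 3 arrays each). The dotted line is the median of all genes, 0.08. Most points lie to its right, and the 6 called lower lie in complexes I, II and III.

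**Figure D2:**
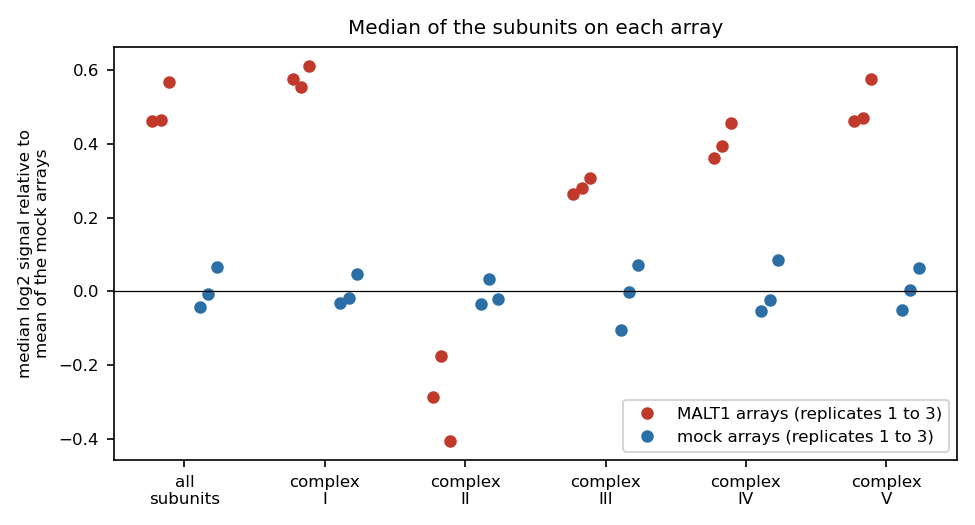
Median log2 signal of the subunits on each array, relative to the mean of the mock arrays, over all 67 subunits and by complex (1 point an array, replicates 1 to 3 from left to right). For all subunits the arrays labelled MALT1 lie at 0.46 to 0.57 and those labelled mock at −0.04 to 0.07. Complex II, with 3 subunits, lies below 0 on the arrays labelled MALT1.

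The labels and the cell type were checked. The MALT1 transcript was lower on the arrays labelled MALT1 by 2 of its 3 probe sets (log2 difference −0.47, adjusted p = 0.0104, for the one with the highest mean, and −1.08, adjusted p = 0.0022), which goes against the label, so that groups are named here by their labels. Where the probes lie relative to the cDNA was not analysed here. Markers of luminal epithelium, a simple glandular cell type, were higher for 10 of 10 genes, with a summed signal of 75183 to 83763 on the arrays labelled MALT1, against 8619.8 to 9341 on those labelled mock. For squamous keratinocytes, the cell type of the label, 7 of 7 markers were lower (summed signal 24076 to 26927 on the arrays labelled MALT1, against 52055.5 to 61803 on those labelled mock), and all 7 kept mean signals above 100 in both groups. On the mock arrays the luminal markers KRT19, FOXA1, TFF1 and SPDEF were at or below 17.6, the highest signal of a bacterial control. Fibroblast markers (8, of which 1 was lower) summed to 142 to 278 on the arrays labelled MALT1, against 161 to 208 on those labelled mock, and leukocyte markers (6, of which 1 was higher) to 48.9 to 141 on the arrays labelled MALT1, against 64.2 to 76.6 on those labelled mock, with PTPRC and LYZ not above the control level in either group. The median signal of an array was 69.9 to 79.3 for the arrays labelled MALT1, against 64.7 to 68.6 for those labelled mock. The ACTB ratio of 3′ to 5′ signal was 3.60 to 4.46 for the arrays labelled MALT1, against 3.59 to 3.98 for those labelled mock, and both measures were highest on MALT1 replicate 3. The part of these differences in the subunits' shift was not tested. The samples are not said to be separate cultures, so each p-value rests on variation among these arrays alone, and that variation may be technical. In bulk RNA, fewer cells of a type and less RNA per cell cannot be told apart. The groups differed in the luminal and squamous markers as well as in label. For every subunit difference given here, the MALT1 cDNA of the label and this difference between the cells cannot be told apart.

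The promoters of 5 subunits are shown as examples, picked with the values in view. They are not those of the largest differences: NDUFA10, ATP5ME and NDUFB2, which moved more than COX5B, are not shown. COX5B and ATP5MC2 are genes of complexes IV and V that were over 2-fold higher, and ATP5MC1 codes for the same mature protein as ATP5MC2. SDHA and SDHD are partners in complex II that moved in opposite directions. Each is the 250 bases before the start of transcription, from RefSeq on GRCh38.p14, with letters in capitals where 1 of 6 motifs matched on either strand.
COX5B: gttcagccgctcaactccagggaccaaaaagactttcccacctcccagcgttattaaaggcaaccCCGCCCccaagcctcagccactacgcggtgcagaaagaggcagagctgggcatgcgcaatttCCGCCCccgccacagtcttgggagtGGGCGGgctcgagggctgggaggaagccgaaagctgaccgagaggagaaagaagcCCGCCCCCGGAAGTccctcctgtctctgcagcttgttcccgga
ATP5MC2: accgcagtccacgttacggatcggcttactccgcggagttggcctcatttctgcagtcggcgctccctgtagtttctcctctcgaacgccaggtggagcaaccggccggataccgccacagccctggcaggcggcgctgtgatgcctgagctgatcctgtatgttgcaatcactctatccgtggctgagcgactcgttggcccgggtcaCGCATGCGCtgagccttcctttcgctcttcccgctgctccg
ATP5MC1: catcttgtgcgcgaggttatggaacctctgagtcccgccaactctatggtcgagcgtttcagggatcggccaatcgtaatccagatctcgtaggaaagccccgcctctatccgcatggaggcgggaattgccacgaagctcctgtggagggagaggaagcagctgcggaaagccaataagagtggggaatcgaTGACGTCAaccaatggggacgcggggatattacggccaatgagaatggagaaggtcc
SDHA: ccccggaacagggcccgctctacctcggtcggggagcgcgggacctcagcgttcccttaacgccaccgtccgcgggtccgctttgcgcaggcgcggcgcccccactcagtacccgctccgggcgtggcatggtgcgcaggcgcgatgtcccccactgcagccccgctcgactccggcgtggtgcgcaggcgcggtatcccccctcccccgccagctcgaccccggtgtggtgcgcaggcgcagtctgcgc
SDHD: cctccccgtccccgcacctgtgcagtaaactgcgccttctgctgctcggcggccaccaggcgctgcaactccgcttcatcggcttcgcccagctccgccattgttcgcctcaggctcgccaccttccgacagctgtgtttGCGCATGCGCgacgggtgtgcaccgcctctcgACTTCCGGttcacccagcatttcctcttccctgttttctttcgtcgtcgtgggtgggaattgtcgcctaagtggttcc
Their places are chr2:97645812-97646061, plus strand for COX5B, chr12:53676084-53676333, minus strand for ATP5MC2, chr17:48892537-48892786, plus strand for ATP5MC1, chr5:218070-218319, plus strand for SDHA and chr11:112086623-112086872, plus strand for SDHD. In COX5B the capitals mark 4 SP1 motifs, GGGCGG or its reverse complement, and 1 ETS motif, CCGGAAGT, whose first letter lies 37 bases before the start. The ATP5MC2 promoter shown, 1 of 3 listed for the gene, has 1 NRF1 motif, GCGCATGCG, on the reverse strand, 41 bases before the start. ATP5MC1 has 1 CREB motif, TGACGTCA, 57 bases before. SDHA has none of the 6, and SDHD has the NRF1 motif on both strands, overlapping, and an ETS motif on the reverse strand. A match is a description of letters and not evidence of a bound site.

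Complex I, the NADH dehydrogenase, had 19 subunits higher, 4 lower and 5 that did not pass, with a median log2 difference of 0.58. Its membrane arm holds the proton channels, and among 15 accessory subunits placed there 11 were higher, 2 lower and 2 did not pass (median 0.64). The matrix arm, which binds NADH and carries the iron-sulfur clusters, had 7 of 12 higher, 2 lower and 3 that did not pass (median 0.43). These arms were assigned after the values were seen. NDUFAB1, the mitochondrial acyl carrier protein, which sits in both arms, was also higher (log2 difference 0.53), and lost its call under median centring (adjusted p = 0.0507).

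NDUFA10, an accessory subunit of the membrane arm, gave a signal of 2259, 2109 and 2369 on the arrays labelled MALT1, against 1004, 1057 and 1022 on the arrays labelled mock (log2 difference 1.13 ± 0.09 SE, adjusted p = 0.00061). Every signal of the arrays labelled MALT1 lay far above the 3 mock signals, which were close together. NDUFB2, a small single-span subunit of the same arm, read 5518, 5553 and 6439 on the arrays labelled MALT1, against 2726, 2873 and 2855 on the arrays labelled mock (log2 difference 1.05 ± 0.10 SE, adjusted p = 0.00119). A second NDUFB2 probe set was higher by a similar log2 difference of 1.18. NDUFA3 had signals of 1553, 1489.6 and 1662 on the arrays labelled MALT1, against 833, 768 and 804 on the arrays labelled mock (log2 difference 0.97 ± 0.09 SE, adjusted p = 0.00107). NDUFC1 read 6161, 6087 and 6258 on the arrays labelled MALT1, against 3630.5, 3624 and 3730.2 on the arrays labelled mock (log2 difference 0.75 ± 0.08 SE, adjusted p = 0.00139). Both are membrane-arm subunits whose groups did not overlap, and the replicates of NDUFC1 lay close together. Other membrane-arm subunits that were higher included NDUFA13, also known as the cell death regulator GRIM-19 (log2 difference 0.94), NDUFB3 (0.88), NDUFB11 (0.73), NDUFA1 (0.64), NDUFB7 (0.61), NDUFB1 (0.56) and NDUFB4 (0.39). NDUFB5 did not pass (0.05, 95% interval −0.17 to 0.28), nor did NDUFA8 (−0.24, −0.45 to −0.02). Leaving out 1 array ended the call of NDUFA1 (mock replicate 2, adjusted p = 0.0546) and NDUFB3 (mock replicate 1, adjusted p = 0.0503). It also ended those of NDUFB1 (MALT1 or mock replicate 1 or 2, adjusted p up to 0.0744) and NDUFB4 (any but MALT1 replicate 3, adjusted p up to 0.0914). Both were also lost under median centring and with the replicate number as a block, and NDUFB4 under quantile normalization. Over 12 alternatives, NDUFB1 was called in 6 (adjusted p up to 0.126) and NDUFB4 in 4 (up to 0.235).

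In the matrix arm, NDUFS1, the largest core subunit, which carries several iron-sulfur clusters, averaged 2746 ± 138 on the arrays labelled MALT1 against 1570.1 ± 29.04 on those labelled mock (means with SD, 3 arrays a group; log2 difference 0.80 ± 0.08 SE, adjusted p = 0.00155). NDUFS3, a core subunit beside the quinone path, was higher by a log2 difference of 0.67, and the accessory subunits NDUFS6 by 0.73, NDUFA7 by 0.63, NDUFA2 by 0.58 and NDUFA6 by 0.58. NDUFA7 was not called without MALT1 replicate 1 or mock replicate 1 or 2 (adjusted p up to 0.0657), and NDUFA2 and, in the membrane arm, NDUFB7 were not called as a mean over 2 probe sets (adjusted p = 0.285 and 0.0806). Of the flavoprotein pair at the NADH end, NDUFV2 was just past the threshold (log2 difference 0.28 ± 0.08 SE, adjusted p = 0.0475) and kept its call in only 3 of 12 alternatives, in none with 1 array left out (adjusted p 0.0892 to 0.136). NDUFV1, which binds the flavin and NADH, averaged 1631 ± 61.4 on the arrays labelled MALT1 against 1620.0 ± 40.3 on those labelled mock (log2 difference 0.01, 95% interval −0.20 to 0.22). NDUFS7, which carries the last iron-sulfur cluster before ubiquinone, did not pass (−0.03, −0.38 to 0.31), nor did NDUFA5 (−0.34, −0.67 to −0.01), which was called lower in 1 alternative, without mock replicate 3 (adjusted p = 0.0348).

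The 4 lower subunits lie in both arms. NDUFA9, which sits beside the ubiquinone site and is needed for a stable join of the arms, read 1992, 2054 and 2159.5 on the arrays labelled MALT1, against 3578, 3584 and 3878 on the arrays labelled mock (log2 difference −0.83 ± 0.09 SE, adjusted p = 0.00157). NDUFB6, of the membrane arm, read 3144, 2984 and 2617 on the arrays labelled MALT1, against 4393, 4562 and 4741 on the arrays labelled mock (log2 difference −0.65 ± 0.10 SE, adjusted p = 0.00699). For both genes every MALT1 signal lay below every mock signal, and both calls held under all 12 alternatives. NDUFS4, a matrix-arm subunit mutated in Leigh syndrome, read 1201, 1215 and 1311 on the arrays labelled MALT1, against 1733, 1737 and 1613 on the arrays labelled mock (log2 difference −0.45 ± 0.09 SE, adjusted p = 0.0134). Its call was lost in 5 of 12 alternatives, 4 of them the omission of 1 array (MALT1 replicate 1 or 2, mock replicate 1 or 2; adjusted p up to 0.056). NDUFB8, of the membrane arm, read 2729, 2733 and 3299.9 on the arrays labelled MALT1, against 3812, 4277 and 4793 on the arrays labelled mock (log2 difference −0.56 ± 0.14 SE, adjusted p = 0.0294). Its groups did not overlap, and a second probe set was also lower (log2 difference −0.94, adjusted p = 0.0013), while another, at 31.4 ± 3.29 on the arrays labelled MALT1 against 36.1 ± 2.19 on those labelled mock, did not pass. The call of the first was lost on leaving out MALT1 replicate 1 or 2 or mock replicate 2 or 3 (adjusted p up to 0.0934).

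**Figure D3:**
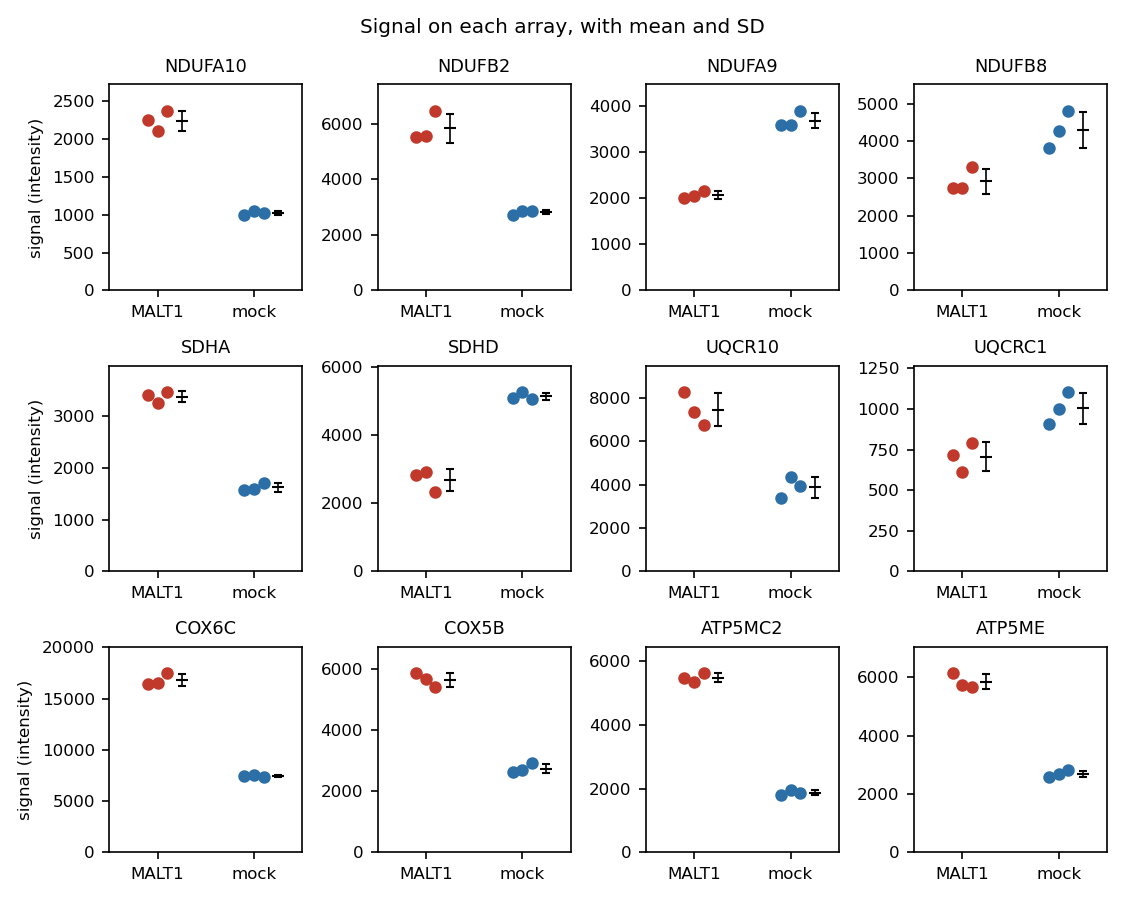
Signal (authors' intensity, linear axis from 0) of 12 named subunits on each array, MALT1 to the left of mock, with the mean and SD beside the points (n = 3 each). NDUFA9, NDUFB8, SDHD and UQCRC1 are lower on the arrays labelled MALT1 and the other 8 are higher, with no overlap between the groups in any panel.

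Complex II, the succinate dehydrogenase, had 1 subunit higher, 1 lower and 1 that did not pass. Its flavoprotein SDHA, which oxidises succinate, read 3419, 3265 and 3463 on the arrays labelled MALT1, against 1573, 1586 and 1719 on the arrays labelled mock (log2 difference 1.06 ± 0.09 SE, adjusted p = 0.00067). SDHD, a membrane anchor that binds ubiquinone and haem, read 2817, 2910.0 and 2315 on the arrays labelled MALT1, against 5094, 5248 and 5056 on the arrays labelled mock (log2 difference −0.94 ± 0.12 SE, adjusted p = 0.00289). SDHA was thus about 2.08-fold higher and SDHD was at 0.52 of the mock level, each without overlap, and both calls held under all 12 alternatives. SDHC, the partner anchor of SDHD, read 1559, 1682 and 1434 on the arrays labelled MALT1, against 1858, 1999 and 1852 on the arrays labelled mock and did not pass (log2 difference −0.29, 95% interval −0.54 to −0.04, adjusted p = 0.0784). Its 4 probe sets differed in sign and none passed. SDHA was read by an x_at probe set, a kind that can bind related transcripts. The iron-sulfur subunit of complex II was not analysed here. A second, dim SDHD probe set was also lower, with all signals of the arrays labelled MALT1 below the control level. The median over the 3 subunits was −0.29, and the complex II median was −0.29, −0.18 and −0.41 on the arrays labelled MALT1, against −0.03, 0.03 and −0.02 on the arrays labelled mock.

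Complex III, the cytochrome bc1 complex, had 4 subunits higher, 1 lower and 2 that did not pass (median 0.30). UQCR10, one of its smallest subunits, read 8249, 7338 and 6734 on the arrays labelled MALT1, against 3376, 4338 and 3941 on the arrays labelled mock (log2 difference 0.94 ± 0.14 SE, adjusted p = 0.00526). UQCRQ, which helps hold cytochrome b, read 7568, 7609 and 7918 on the arrays labelled MALT1, against 4738, 5305 and 5463 on the arrays labelled mock (log2 difference 0.58 ± 0.09 SE, adjusted p = 0.00717). Both were higher on every array labelled MALT1 than on any labelled mock. CYC1, the haem protein that hands electrons to cytochrome c, read 3058, 2924 and 2692 on the arrays labelled MALT1, against 2287, 2171 and 2071 on the arrays labelled mock (log2 difference 0.41 ± 0.09 SE, adjusted p = 0.0239). UQCRB, which borders the ubiquinone site, read 9069.5, 9173 and 9673 on the arrays labelled MALT1, against 7347, 7391 and 7938 on the arrays labelled mock (log2 difference 0.30 ± 0.08 SE, adjusted p = 0.0435). Neither of these 2 calls was firm: CYC1 was called in 5 of 12 alternatives and UQCRB in 3 of 12, with an adjusted p of up to 0.0809 and 0.135 when 1 array was left out. UQCRC1, a core subunit of the complex, was lower and read 714, 614 and 792 on the arrays labelled MALT1, against 909, 999.6 and 1102 on the arrays labelled mock (log2 difference −0.51 ± 0.14 SE, adjusted p = 0.0399). It was called in 5 of 12 alternatives, with an adjusted p of up to 0.111 with 1 array left out. UQCRC2, its partner in the core, did not pass (log2 difference 0.09, 95% interval −0.13 to 0.31), and neither did UQCR11 (−0.05, −0.32 to 0.21). CYC1 and UQCRC1 were not called without any one array other than MALT1 replicate 3, nor UQCRB without any one array. In all, 2 of 7 subunits were called without MALT1 replicate 1 or 2, or without any one mock array.

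Complex IV, the cytochrome c oxidase, had 8 subunits higher, none lower and 5 that did not pass (median 0.38). COX6C, a small membrane-spanning subunit, read 16429.8, 16537 and 17457 on the arrays labelled MALT1, against 7452, 7577 and 7390.0 on the arrays labelled mock (log2 difference 1.17 ± 0.08 SE, adjusted p = 0.00038). COX5B, a zinc-binding subunit on the matrix side, read 5848, 5652 and 5409.5 on the arrays labelled MALT1, against 2639, 2676 and 2905 on the arrays labelled mock (log2 difference 1.04 ± 0.09 SE, adjusted p = 0.00078). Of the 4 probe sets of COX5B, 3 were higher and 1, with low signals, did not pass. COX7A2L, a COX7A-like protein that joins complexes III and IV in supercomplexes, read 4516, 4408 and 4692 on the arrays labelled MALT1, against 2463, 2782 and 2608 on the arrays labelled mock (log2 difference 0.80 ± 0.09 SE, adjusted p = 0.00204). COX5A was higher by less (log2 difference 0.35) and was called in 4 of 12 alternatives, and with 1 array left out only without MALT1 replicate 3 (adjusted p up to 0.0939). COX7B (0.08, 95% interval −0.15 to 0.31) and COX7C (0.29, 0.00 to 0.58) did not pass. Of the 3 probe sets of COX7C, 1 was called higher (0.57, adjusted p = 0.0146), and so was their mean (adjusted p = 0.0384). With MALT1 replicate 1 or 2 or mock replicate 1 or 2 left out, 5 of the 13 subunits were called.

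Some complex IV subunits exist in more than 1 form. For COX6A and COX7A a ubiquitous form and a heart and muscle form were read side by side. Tissue-specific partners of COX4I1, COX6B1 and COX8A were not among the members, so these 3 are given alone. The ubiquitous COX6A1, which lies where cytochrome c oxidase forms dimers, read 10882, 10396 and 11733 on the arrays labelled MALT1, against 5946, 6043 and 6765 on the arrays labelled mock (log2 difference 0.82 ± 0.10 SE, adjusted p = 0.00278). COX6B1, on the side that faces cytochrome c, read 4856, 4699 and 4864 on the arrays labelled MALT1, against 2999.8, 3115 and 3191 on the arrays labelled mock (log2 difference 0.63 ± 0.08 SE, adjusted p = 0.00287). COX4I1, the usual form of subunit 4, read 10352, 10477 and 11242 on the arrays labelled MALT1, against 7764, 8044 and 8782 on the arrays labelled mock (log2 difference 0.38 ± 0.09 SE, adjusted p = 0.0276). For these 3 genes no mock signal reached the lowest MALT1 signal, but COX4I1 kept its call in only 4 of 12 alternatives, and with 1 array left out only without mock replicate 3 (adjusted p up to 0.0934). COX8A, a small membrane-spanning subunit, read 7467, 7018 and 7098 on the arrays labelled MALT1, against 5713, 5709 and 6208 on the arrays labelled mock (log2 difference 0.29 ± 0.09 SE, adjusted p = 0.0493), and was called in 3 of 12 alternatives, in none with 1 array left out (adjusted p up to 0.15). The ubiquitous COX7A2 read 9714, 9479 and 8513 on the arrays labelled MALT1, against 8828, 8876 and 9598 on the arrays labelled mock. Its groups overlapped and it did not pass (log2 difference 0.02, 95% interval −0.22 to 0.26). Of the muscle forms, COX6A2 read 31.7, 19.7 and 26.4 on the arrays labelled MALT1, against 7.17, 23.7 and 18.3 on the arrays labelled mock and did not pass (log2 difference 0.75 ± 0.46 SE, adjusted p = 0.285). COX7A1 was at or below the control level of 17.6 in both groups, with signals from 1.35 to 2.77. Of 9 striated muscle markers measured, 2 were higher: MB, the oxygen carrier myoglobin, averaged 1526 ± 117 on the arrays labelled MALT1 against 13.1 ± 2.64 on those labelled mock, and MYH7 36.8 ± 13.4 on the arrays labelled MALT1 against 4.94 ± 1.43 on those labelled mock. The mean mock signal of MYH7 lay below the control level of 17.6. The summed signal of the 9 was 1516.5 to 1824 on the arrays labelled MALT1, against 92.6 to 164 on those labelled mock. MB made up most of the sum on the arrays labelled MALT1. Of the 9, 22.2% were called higher, where 21.1% of all genes were. Their log2 differences ran from −1.24 to 6.77 (median 0.235), with 5 above 0, and 6 were at or below the control level throughout a group. CKM, ACTA1 and TNNC1 were not above the control level in either group.

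Complex V, the ATP synthase, had 10 subunits higher, none lower and 6 that did not pass (median 0.50). In the F1 head with its central stalk, which makes ATP, 4 of 5 were higher (median 0.50). The membrane part, which holds the rotating ring and small subunits around it, had 5 of 6 higher (median 0.64). In the peripheral stalk, which holds the head still against the ring, 0 of 4 were called, with a median of 0.06. Placement of subunits was made after the values were seen, and a difference between the parts was not tested.

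The ring is built from subunit c, for which 3 genes, ATP5MC1, ATP5MC2 and ATP5MC3, code; their import signals differ and the mature protein is the same. ATP5MC2 read 5478, 5352 and 5627 on the arrays labelled MALT1, against 1789.8, 1961 and 1883 on the arrays labelled mock (log2 difference 1.55 ± 0.08 SE, adjusted p = 0.0002), 2.92-fold higher and the largest difference among the 67 subunits. ATP5MC1 read 3084, 3034 and 3078 on the arrays labelled MALT1, against 1861, 1967 and 1835 on the arrays labelled mock (log2 difference 0.70 ± 0.08 SE, adjusted p = 0.00207). ATP5MC3 read 8876, 8863 and 9684 on the arrays labelled MALT1, against 6090.5, 6564 and 6747 on the arrays labelled mock (log2 difference 0.50 ± 0.09 SE, adjusted p = 0.0108). In all 3 genes the groups were apart, with every signal of the arrays labelled MALT1 above every mock signal. A second ATP5MC2 probe set, whose mean signals were 9.06 (MALT1) and 18.1 (mock), did not pass. Averaging it with the first ended the ATP5MC2 call (log2 difference 0.15, adjusted p = 0.797), and the call of ATP5MC3 was lost under median centring (adjusted p = 0.0517).

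ATP5ME, a small subunit where ATP synthases join in dimers, read 6131, 5727 and 5672 on the arrays labelled MALT1, against 2576, 2673 and 2806 on the arrays labelled mock (log2 difference 1.12 ± 0.09 SE, adjusted p = 0.00058). A second ATP5ME probe set, also of the x_at kind, was higher by 1.21. ATP5IF1, the inhibitor that stops the enzyme from running backwards and burning ATP, read 2094, 2291 and 2484 on the arrays labelled MALT1, against 1194, 1222 and 1149 on the arrays labelled mock (log2 difference 0.94 ± 0.10 SE, adjusted p = 0.00164). ATP5ME and ATP5IF1 thus had every MALT1 signal above all mock signals. In the head, ATP5F1D and ATP5F1C of the central stalk were higher by log2 differences of 0.77 and 0.76. The catalytic subunit ATP5F1B was higher by 0.48 and its partner ATP5F1A by 0.50, and both calls were lost under median centring (adjusted p = 0.0693 and 0.0668). ATP5MJ was higher by 0.58. The remaining head subunit ATP5F1E averaged 16194 ± 639.5 on the arrays labelled MALT1 against 15268 ± 599.9 on those labelled mock and did not pass (95% interval −0.13 to 0.30). In the stalk the 95% intervals were −0.17 to 0.26 for ATP5PB, −0.21 to 0.37 for ATP5PO, −0.25 to 0.20 for ATP5PF and 0.07 to 0.58 for ATP5PD (adjusted p = 0.0562). ATP5MG, of the membrane part, did not pass either (log2 difference 0.29, −0.01 to 0.59). Another of its 4 probe sets was called higher (0.69, adjusted p = 0.0118), and so was their mean (adjusted p = 0.018). ATP5PD was called higher in 2 of 12 alternatives, with a pseudocount of 16 and with dim probe sets left out.

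Of the 21 subunits with several probe sets, none was called in both directions, and the sign of the difference varied between probe sets for 7. The 2 genes that are not protein-coding subunits were both higher. NDUFB2-AS1 averaged 54.3 ± 1.62 on the arrays labelled MALT1 against 22.7 ± 1.74 on those labelled mock (log2 difference 1.23 ± 0.09 SE, adjusted p = 0.00057). ATP5MC2P1 averaged 76.0 ± 8.43 on the arrays labelled MALT1 against 37.1 ± 14.6 on those labelled mock (log2 difference 1.08 ± 0.29 SE, adjusted p = 0.04). NDUFB2-AS1 lies antisense to NDUFB2, and ATP5MC2P1 is named as a pseudogene of ATP5MC2, whose own signals were far higher (means of 5486 and 1878). The array's ability to separate the members of either pair was not analysed here.

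Other mitochondrial gene lists were read in the same fit, where 21.1% of all genes were higher and 19.2% lower. Of 27 assembly factors, which build the complexes but are not part of them, 5 were higher and 6 lower (median log2 difference −0.09). These shares, 18.5% and 22.2%, were near those over all genes. TACO1, which is needed for synthesis of a mitochondrially coded core subunit of complex IV, was higher (1.42), as was SURF1, an assembly factor of complex IV (1.11), while NUBPL, which supplies complex I with iron-sulfur clusters, was lower (−0.91). SDHAF3, an assembly factor of complex II, was lower at 25.1, 31.5 and 44.3 on the arrays labelled MALT1, against 465, 346 and 214 on the arrays labelled mock (log2 difference −3.27 ± 0.36 SE, adjusted p = 0.00188). Of 22 regulators of mitochondrial biogenesis, 2 were higher and 2 lower (9.09% each, median 0.03). GABPB1, a subunit of the ETS factor GABP, was higher (log2 difference 1.04 ± 0.10 SE, adjusted p = 0.00144), as was POLG2 of the mitochondrial DNA polymerase (0.87), whereas the coactivator PPRC1 (−0.89) and the methyltransferase TFB1M (−0.99) were lower. The other regulators of the list did not pass. TFAM averaged 2318 ± 9.44 on the arrays labelled MALT1 against 2286 ± 166 on those labelled mock. NRF1 averaged 143 ± 4.52 on the arrays labelled MALT1 against 175 ± 20.8 on those labelled mock. ESRRA averaged 402 ± 18.1 on the arrays labelled MALT1 against 516 ± 55.5 on those labelled mock. GABPA averaged 117 ± 2.60 on the arrays labelled MALT1 against 111 ± 7.48 on those labelled mock. PPARGC1A was not above the control level in either group. YY1 averaged 7116 ± 614.5 on the arrays labelled MALT1 against 5885 ± 97.85 on those labelled mock (adjusted p = 0.0906). CREB1 averaged 777 ± 71.2 on the arrays labelled MALT1 against 716 ± 25.8 on those labelled mock. Groups did not overlap for 10 of the 22 regulators. Signals were higher for 4 of them, YY1 included, and lower for 6, NRF1 and ESRRA included. Over all genes these shares were 29% and 25.6%.

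Among 22 enzymes of the citric acid cycle and pyruvate dehydrogenase, which feed electrons to the chain, 8 were higher and 2 lower (median 0.34). These shares were 36.4% and 9.09%, where 21.1% of all genes were higher and 19.2% lower. IDH2, the NADP-dependent isocitrate dehydrogenase, read 1753, 1610.3 and 1466 on the arrays labelled MALT1, against 140.1, 142 and 192 on the arrays labelled mock (log2 difference 3.35 ± 0.16 SE, adjusted p = 0.00015). PDP1, the phosphatase that switches pyruvate dehydrogenase on, was lower at 179, 162 and 196 on the arrays labelled MALT1, against 1021, 1015 and 917 on the arrays labelled mock (log2 difference −2.45 ± 0.11 SE, adjusted p = 0.00012), and PDK3, a kinase that switches it off, was higher (1.10), as was IDH3G (0.65). Of 51 mitochondrial ribosomal proteins 20 were higher (39.2%) and 9 lower (17.65%), with a median of 0.19. They ran from MRPS17 (−1.76) and MRPS31 (−1.10) to MRPL9 (1.16) and MRPS34 (1.70). Of 22 import genes 6 were higher and 6 lower (27.3% each, median 0.10). Among them TIMM13 (0.77) and PMPCA (0.87) were higher and TIMM10 (−1.12) and TOMM34 (−0.90) lower. Of 22 carriers and inner-membrane partners 8 were higher (36.4%) and 1 lower (4.5%), with a median of 0.18. UCP2, an inner-membrane carrier of the uncoupling protein family, averaged 1250.3 ± 24.7 on the arrays labelled MALT1 against 4.77 ± 2.60 on those labelled mock and was at least 70.9-fold higher, since its mock signals lay below the control level (adjusted p = 0.00012). ETFA, which passes electrons from fatty acid oxidation to ubiquinone, was higher by 0.92, COQ7 of ubiquinone synthesis by 0.82, and the scaffold PHB1 by 0.62.

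**Figure D4:**
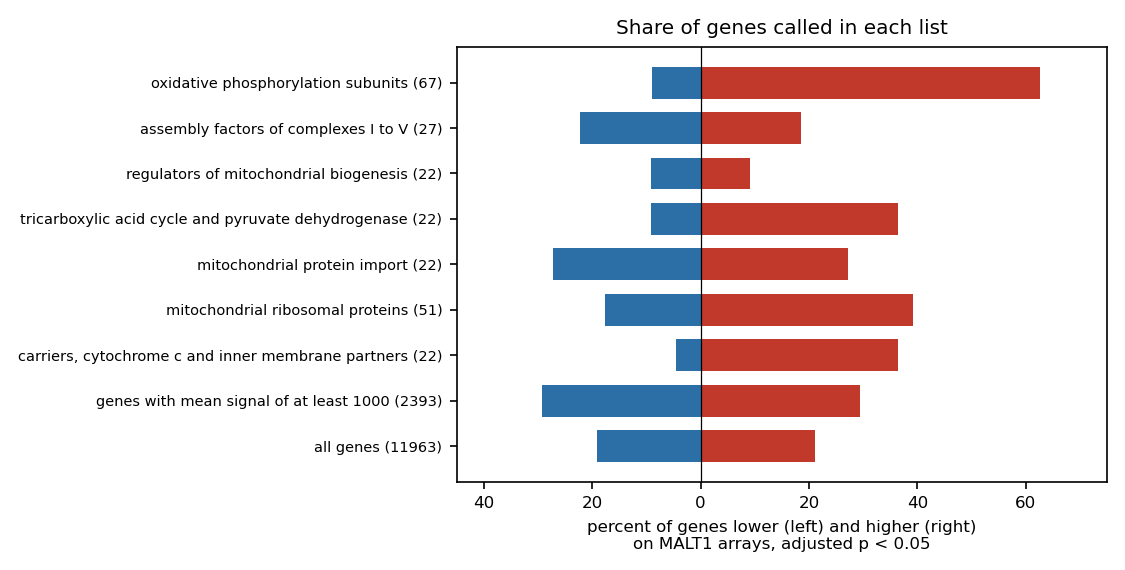
Percent of genes higher (to the right) and lower (to the left) on the arrays labelled MALT1 at an adjusted p under 0.05, for the subunits, other mitochondrial lists and all genes, with the number of genes in brackets. The subunits were 62.7% higher and 8.96% lower, where all genes were 21.1% higher and 19.2% lower.

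The subunits were also read beside their neighbours in chromosomal order, 10 measured genes on each side. Around the 42 higher subunits the median of the neighbours lay above that of all genes for 33, and the middle of these medians was 0.18. For the 6 lower subunits it lay above for 2 and the middle was −0.37; for the 19 that did not pass, above for 6 and −0.04. The neighbours of genes other than the subunits were not read in this way. Neighbours of NDUFB6 had a median of −0.64, with 13 of 20 lower and 2 higher, and those of NDUFS4 −0.53, with 8 lower and 2 higher. Those of SDHD had a median of −0.45, with 9 lower and 1 higher, and those of NDUFA9 −0.30, with 7 lower and none higher. Over all genes, 19.2% were lower and 21.1% higher. NDUFB8 and UQCRC1 were lower among neighbours with medians of 0.09 and 0.33. Among the higher subunits, the neighbours of ATP5MC2 had a median of 0.13 and those of COX6A1 of 0.52. Of 3 lower genes beside SDHD, NKAPD1 averaged 249.6 ± 10.0 on the arrays labelled MALT1 against 522 ± 27.9 on those labelled mock. The import gene TIMM8B averaged 2848 ± 91.6 on the arrays labelled MALT1 against 3488 ± 148 on those labelled mock (log2 difference −0.29, adjusted p = 0.0463). IL18, a cytokine gene, averaged 297 ± 18.1 on the arrays labelled MALT1 against 2735 ± 384 on those labelled mock. DNA copy number was not analysed here, and the part of chromosomal position in these results was not tested.

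**Figure D5:**
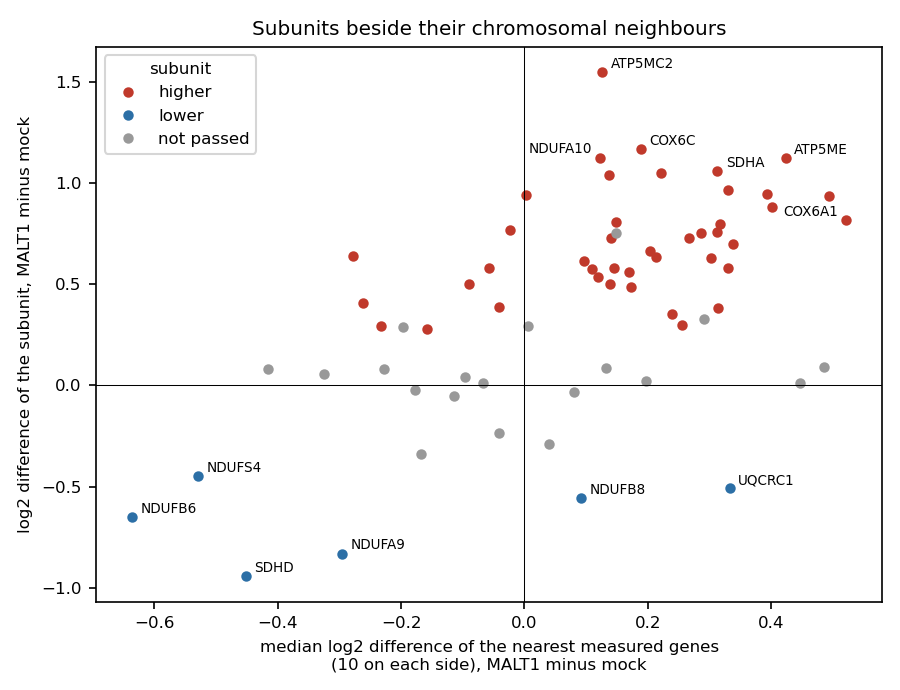
Log2 difference of each subunit (vertical axis) against the median log2 difference of its nearest measured genes, 10 on each side where so many were measured (horizontal axis), both MALT1 minus mock. NDUFB6, NDUFS4, SDHD and NDUFA9 lie at the lower left, with neighbour medians of −0.64 to −0.30, while NDUFB8 and UQCRC1 lie at the lower right.

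Promoters were read for 58 subunits found in the RefSeq table, over 250 bases before to 50 after each listed start, against 15842 protein-coding genes. NRF1 (nuclear respiratory factor 1), GABP of the ETS family, YY1, CREB, the oestrogen-related receptors and SP1 are factors known at genes of the respiratory chain. The NRF1 letters GCGCATGCG were in 19.0% of the subunits and 3.11% of all genes, and the ETS letters CCGGAAGT in 17.2% and 6.97%. The letters AAGGTCA, known from oestrogen-related receptors, were in 17.2% and 4.26%, and TGACGTCA, of CREB, in 6.90% and 3.00%. GGGCGG, of SP1, was as common in the subunits as elsewhere (65.5% and 64.3%). Each was counted on either strand, with overlaps kept. All 4 subunits with the CREB letters, ATP5MC1, ATP5ME, NDUFA10 and NDUFB2, were among those called higher, as were 36 of all 58. The ETS letters were in 6 of 36 higher, 1 of 6 lower and 3 of 16 that did not pass. For AAGGTCA these counts were 5, 1 and 4, and for GGGCGG 26, 2 and 10. NRF1 letters were in 6 of 36 higher, 1 of 6 lower and 4 of 16 that did not pass.

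The YY1 letters AAGATGGC were in 19.0% of the subunits and 4.67% of all genes. They were in 4 of 6 lower subunits, 3 of 36 higher and 4 of 16 that did not pass. Among those 4 lower subunits, only NDUFA9 kept its call under all 12 alternatives. NDUFB8 was called in 8 of 12, NDUFS4 in 7 and UQCRC1 in 5. NDUFB6 and SDHD, whose lower calls held under all 12, do not have the letters. Among the 3 higher subunits, NDUFA3 and NDUFA6 were called in all 12 and NDUFA7 in 9. The YY1 letters hold an ATG. They are shown, in capitals within 30 bases of RefSeq sequence just after the start of transcription, for the 4 lower subunits and then the 3 higher ones.
NDUFA9: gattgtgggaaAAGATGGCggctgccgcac
NDUFB8: tgaagaaggtgAAGATGGCggtggccaggg
NDUFS4: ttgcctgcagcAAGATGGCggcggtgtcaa
UQCRC1: actgcagctggAAGATGGCggcgtccgtgg
NDUFA3: ccgcggagacaAAGATGGCtgcgagtaagt
NDUFA6: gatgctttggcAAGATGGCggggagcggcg
NDUFA7: atcgcggacggAAGATGGCgtccgccaccc
These windows lie on GRCh38.p14 at chr12:4649113-4649142 (plus strand), chr10:100529836-100529865 (minus strand), chr5:53560649-53560678 (plus strand), chr3:48609605-48609634 (minus strand), chr19:54102865-54102894 (plus strand), chr22:42090729-42090758 (minus strand) and chr19:8321343-8321372 (minus strand), in the order of the genes. The same 8 letters thus stand in genes that were higher and in genes that were lower, and no test was made of their split.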

How the data were processed

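Biotin-labelled RNA of 6 samples was read on Affymetrix arrays, 1 array a sample, per the labels' protocols; each sample's group came from its label. The values deposited by the authors are linear intensity values, 1 a probe set. No source used here names the software behind them. Judged by its values, each array had been scaled to a 2% trimmed mean of 500.1 to 500.2. Of 22277 probe sets, 62 controls were left out and 22215 tested, with no filter on signal. Of these, 19064 had 1 gene symbol, 1043 several and 2108 none, in the platform annotation; 19052 of the first matched RefSeq (GRCh38.p14) by gene ID, all 69 members among them.

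The signal plus 1 was put on the log2 scale and fitted with limma 3.58.1 (R 4.3.3, lmFit and eBayes, group as the only term), with two-sided p-values adjusted by Benjamini-Hochberg over the 22215 probe sets. Adjusted p-values come from this fit unless an alternative is named. The fit was also run on simulated arrays in which few probe sets were changed, all of them upward. On the measured arrays many probe sets moved, in both directions, so that run does not check the calls made here. Differences are arrays labelled MALT1 minus arrays labelled mock. A probe set at or below 17.6, the highest trp control signal, throughout a group is measured there only as a bound. Tables were written with Python 3.11.15. With 3 arrays a group, their number limits the precision.

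Alternatives were median centring, quantile normalization, a pseudocount of 16, leaving out dim probe sets, the mean over a gene's probe sets, the replicate number as a block, and leaving out each array in turn. Named with all signals were up to 4 higher and 4 lower members a complex by smallest adjusted p, complex II, the tissue-specific isoforms of complex IV with their partners, and the ATP5MC genes; in each pathway list, up to 4 by smallest adjusted p. Other members are named to account for all. TFAM, NRF1, ESRRA, GABPA, PPARGC1A, YY1, CREB1, MB, MYH7 and the neighbours of SDHD were picked with their values in view. The members and lists were chosen with earlier results of these data known.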

Additional observations from a re-analysis of the deposited data

How the results depend on the processing

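Over 12 alternatives, 35 to 50 of the 67 subunits were called, against 48 in the reported fit. The median difference of 0.50 was 0.37 under median centring, where the median of all genes was −0.05, and 0.43 under quantile normalization, where that was −0.02, against 0.08 as reported; leaving out 1 array gave 0.45 to 0.55. Median centring called 44.8% of the subunits higher, against 16.3% of all genes. Complex III had 5 called subunits, 3 under median centring, 3 under quantile normalization and 2 to 4 with 1 array left out. Complex IV had 8, 5 under median centring and 5 to 6 with 1 array left out. Deviations of same-numbered arrays had correlations of 0.0587, −0.0025 and 0.0607. Arrays of different numbers were not compared, so these values cannot decide whether the replicate numbers pair the arrays. With the replicate number as a block, 38 subunits were called (34 higher and 4 lower), 2 of complex III and 5 of complex IV. In that setting 5808 probe sets were called against 7917, and the MALT1 transcript had a log2 difference of −0.47 with an adjusted p of 0.0543. For 3 named members the difference changed sign: SDHC, −0.29 as reported, was 0.021 as a mean over probe sets, COX7A2, 0.02 as reported, was −0.11 under median centring, −0.082 under quantile normalization and −0.018 to 0.077 with 1 array left out, and COX7A1, dim in both groups, was −0.12, −0.23 and −0.20 to 0.14 in the same settings. COX4I1 was 0.02 (adjusted p = 0.897) as a mean over probe sets. SDHC passed with dim probe sets left out (adjusted p = 0.0491). Of 371 values of the 31 named members under an alternative, 309 kept direction and call, 51 kept the direction and lost the call, 1 gained it and 10 changed sign; the cause was not tested.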
